A study of Homo sapiens with 24 samples.

Results

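Small RNA libraries of HEK293 cells that overexpressed lamin B2 (LMNB2) were compared with those of HEK293 cells that overexpressed enhanced green fluorescent protein (eGFP, written GFP here). The comparison takes every LMNB2 and GFP library of the small RNA count table, 3 per group, which is 6 of the 24 libraries of the series, and all 175946 annotated intervals (called features here), described by the table's biotype, name and chromosome. HEK293 is an established line of transformed human embryonic kidney cells, and the labels give a wild type genotype for every sample. Per the labels, both groups therefore share the line and the genotype and differ in the overexpressed protein. The vector, the promoter, the number of clones and the duration of overexpression are not given in the sources used here. The series also holds 3 small RNA libraries each for lamin A (LMNA) and lamin B1 (LMNB1), and 12 ATAC-seq libraries, an assay of open chromatin, from the same 4 conditions. Nothing in the labels says that replicates came from separate cultures, so every p-value measures the spread between these libraries, which may be technical.

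Lamins form the filament meshwork beneath the nuclear membrane, and lamin B2 is one of the B-type lamins, which stay anchored in the membrane. Chromatin in contact with the lamina is mostly gene-poor and little transcribed, while gene-dense chromosomes such as chromosome 19 lie mainly in the nuclear interior. The small RNA fraction holds microRNAs (miRNAs), which repress matching messenger RNAs; small nucleolar RNAs (snoRNAs), which guide chemical changes on ribosomal and spliceosomal RNA; spliceosomal small nuclear RNAs (snRNAs); RNA polymerase III products such as tRNAs and 5S rRNA; and fragments of longer RNAs.

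Total counts over all features ran from 135748281 to 184603455 in the GFP libraries and from 132507051 to 142686105 in the LMNB2 libraries. Long noncoding RNA (lncRNA) intervals held 79.4 to 86.5% of the counts in GFP and 77.9 to 78.8% in LMNB2. Of 33893 features with enough counts to test, 60.9% overlapped a protein-coding gene, and use of strand is not given in the sources, so counts in such an lncRNA interval cannot be told apart from fragments of the gene's own transcripts. Scaled by total counts, the GFP libraries varied more than the LMNB2 libraries. Between 31.7 and 56.9% of features differed beyond Poisson error within pairs of GFP libraries, against 11.8 to 14.1% within pairs of LMNB2 libraries. Differences in composition between libraries are part of these shares. The scaling factors of the main fit (TMM) were 0.631, 0.905 and 1.31 in GFP and 1.16, 1.1 and 1.06 in LMNB2. GFP replicate 3 stood apart in miRNA, which made up 0.400% of its counts, against 0.0990% in GFP replicate 1, 0.164% in GFP replicate 2 and 0.148 to 0.172% in the LMNB2 libraries. Of 17 miRNAs that mark other tissues, 16 had an interval and 8 of those had no count in any of the 6 libraries. Counts summed over that list ran from 84 to 786 in GFP and from 135 to 180 in LMNB2, nearly all from the endothelial MIR126. Markers of HEK293 cells themselves were not analysed here.

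Sequences of selected miRNAs are shown first, although most calls were of lncRNA intervals. The number of miRNA features called lower was 0 without any 1 LMNB2 library and with the 6 libraries alone. Mature sequences are from RefSeq (GRCh38.p14), matched by name and position, and are printed 5′ to 3′ in lower case with the seed, bases 2 to 8, in capitals. The first 4 are arms of miRNAs with an interval that was called lower in LMNB2 and kept its call when GFP replicate 3 was left out; for MIR92B and MIRLET7E that interval is the hairpin. The next was called lower too, also without GFP replicate 3. It lies in the miR-17-92 cluster, an oncogenic polycistron on chromosome 13. The last pair are members of the same cluster that were not called, shown because they have the same seeds as miR-92b-3p and miR-19a-3p.
hsa-miR-423-3p: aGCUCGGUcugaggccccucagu
hsa-miR-92b-3p: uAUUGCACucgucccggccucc
hsa-miR-2110: uUGGGGAAacggccgcugagug
hsa-let-7e-3p: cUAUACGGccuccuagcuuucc
hsa-miR-19a-3p: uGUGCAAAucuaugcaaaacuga
hsa-miR-92a-3p: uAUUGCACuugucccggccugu
hsa-miR-19b-3p: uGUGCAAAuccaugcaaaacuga
Of 479 miRNA features tested, 247 span exactly a mature sequence with 25 bases added on each side, 85 span a hairpin with the same margin, and 147 match neither.

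In LMNB2 cells, 646 features were called higher than in GFP and 255 lower, out of 33893 tested (edgeR quasi-likelihood test, adjusted p under 0.05 by Benjamini-Hochberg over all tested features). That is 2.66% of all features, 1.91% higher and 0.752% lower. Before adjustment 6761 features (19.9%) had a p under 0.05. The features called higher merged into 259 separate loci, 581 of them were lncRNA intervals, and their median log2 fold change was 1.03. Those called lower merged into 119 loci, 207 of them were lncRNA intervals, and their median was −1.02. The number of calls depended on single libraries: it was 51 without LMNB2 replicate 2, 60 without LMNB2 replicate 3, 170 without LMNB2 replicate 1, 316 without GFP replicate 2, 1390 without GFP replicate 1 and 2101 without GFP replicate 3. Without GFP replicate 1 the balance turned, to 589 higher and 801 lower. It was 21, all higher, when the 6 libraries were fitted without the LMNA and LMNB1 libraries. The share of calls that were higher also moved with the scaling: 646 of 901 became 281 of 282 when libraries were scaled by total counts alone. With scaling factors from features other than lncRNA intervals it was 652 of 798. Scaling by total counts moved the median of all features from −0.04 to 0.21, and group medians below are read against that of all features. Of 89 named features with a call, 14 kept it in every alternative fit that tested them: 8 over LMNB2, 2 over LMNB1-DT, and lnc-BCOR-8, lnc-ZNF567-4, lnc-ZNF83-2 and AC011503.1.

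The overexpressed gene itself was read first, as a check of the labels. All 8 tested features that overlap LMNB2 on chromosome 19 were called higher, by 6.34 to 10.33 on the log2 scale. NONHSAG024437.2 (chr19:2431529-2456974, GRCh38), an lncRNA annotation that spans LMNB2, stood at 0.421, 0.426 and 0.355 CPM (counts scaled to a common library size) in the GFP libraries and at 336, 378 and 365 CPM in the LMNB2 libraries. The group means were 0.401 ± 0.0398 and 360 ± 21.2 CPM (SD, n = 3 each), a log2 fold change of 9.81 ± 0.31 (SE; edgeR adjusted p = 2.47e-12), and against the same GFP libraries it was 0.23 in LMNA and 0.80 in LMNB1 cells. MIR7108, a miRNA hairpin annotated within LMNB2, was at 0.0344, 0.00735 and 0.0338 CPM in GFP and at 24.6, 26.3 and 23.5 CPM in LMNB2 over its whole interval. The ATAC libraries of LMNB2 cells also held far more fragments over the gene: the window of NONHSAG024437.2 had 6276, 4499 and 4303 counts in GFP and 12061508, 10287318 and 11348680 in LMNB2. Over the 8 windows the ATAC difference was 8.71 to 10.90 on the log2 scale, and 2 windows were called, while the other 6 had adjusted p-values of 0.182 to 0.474 although their LMNB2 counts lay far above every GFP count. Endogenous LMNB2 and the introduced copy were not separated here.

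LMNB1-DT, an lncRNA that starts beside LMNB1 on chromosome 5, was also higher in LMNB2 cells in 2 of its 4 tested intervals. All 4 overlap LMNB1; the called ones end at position 126778255 and the others at 126776694 and 126776943. The interval chr5:126777177-126778255 stood at 0.0601, 0.110 and 0.0732 CPM in GFP and at 0.398, 0.352 and 0.398 CPM in LMNB2 (log2 fold change 2.22 ± 0.24 SE; edgeR adjusted p = 1.62e-04). The groups did not overlap, and the call held in every alternative fit. In LMNB1 cells, against the same GFP libraries, the same interval was higher by 7.79, and the other 2 LMNB1-DT intervals were not called in LMNB2 (0.01 each). Whether reads of one lamin transcript were counted at the other was not tested.

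Chromosome 19 held the largest group of calls. Without the 8 LMNB2 features, 1765 features of chromosome 19 were tested, and 232 were called higher (13.1%) and 5 lower, against 1.88% called higher over all features without LMNB2. The median log2 fold change on chromosome 19 was 0.46, with −0.04 over all features. The median level per library, as log2 CPM minus the GFP mean, was −0.04, 0.03 and −0.01 in the GFP libraries and 0.42, 0.44 and 0.48 in the LMNB2 libraries, so the groups did not overlap. In LMNA and LMNB1 cells the same median was −0.05 and −0.07 against the same GFP libraries. On this chromosome 727 features (41.2%) lay higher in every LMNB2 library than in every GFP library and 26 lay lower, against 12.1% and 10.2% of all features. With 1 feature kept per set of overlapping intervals, the median was 0.50, and 76 were called higher and 2 lower. The median kept its sign in every fit that left out a library, from 0.44 to 0.54, and was 0.71 when scaled by total counts, 0.50 above that of all features. The number called higher was less stable: 22 without LMNB2 replicate 2, 29 without replicate 3, 70 without replicate 1, 86 without GFP replicate 2, 131 without LMNB1 replicate 2, 154 without LMNB1 replicate 1 and 8 with the 6 libraries alone. The 132 features of other biotypes on chromosome 19 had a median of −0.10, with 9 called higher (6.82%) and 5 lower (3.79%).

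**Figure D1:**
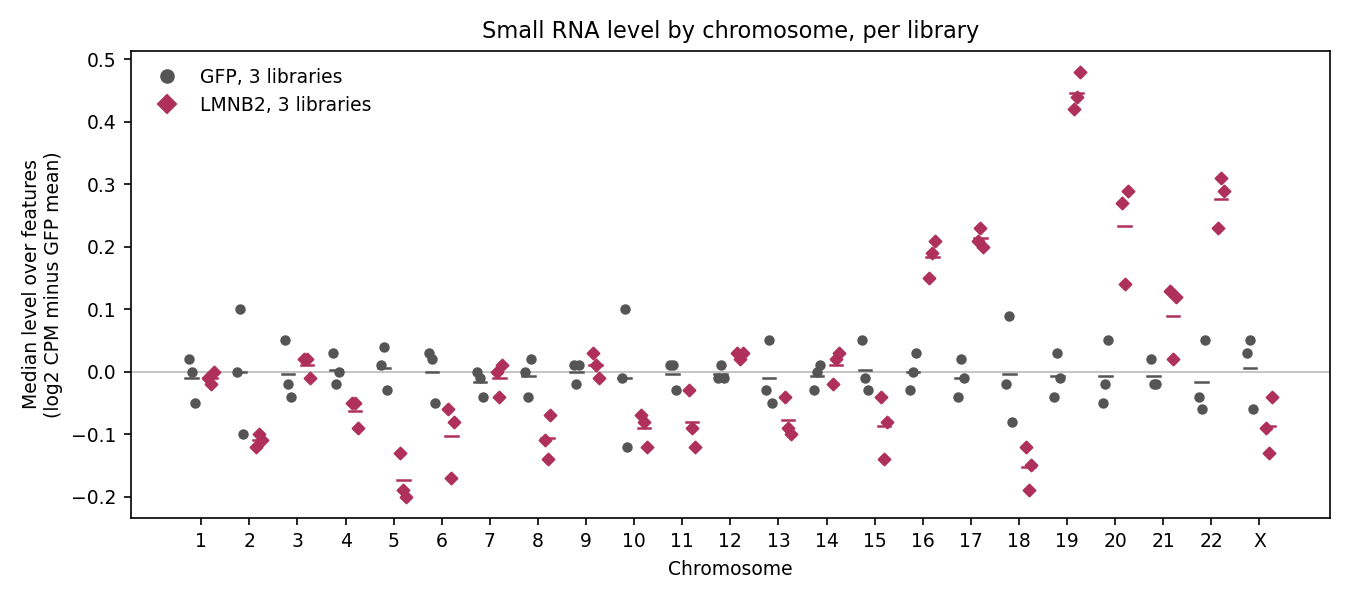
Median small RNA level of each chromosome (vertical axis, log2 CPM minus the GFP mean, over all tested features without LMNB2) in each of the 3 GFP and 3 LMNB2 libraries, with a bar at the group mean. Chromosome 19 lies highest in LMNB2, at 0.42 to 0.48, and chromosomes 5 and 18 lie lowest.

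The shift on chromosome 19 was spread over both arms but not over the region around the centromere. In bins of 5 Mb, counted from the start of the short arm, the median log2 fold change was between 0.28 and 0.68 in every bin except the 2 from 25 to 35 Mb, which were at 0.03 and 0.02 with 0 of 176 and 0 of 76 features called. The bin from 35 to 40 Mb had 60 features called higher of 265 and a median of 0.64, and the last bin, from 55 Mb to the end of the long arm, had 47 of 220 and a median of 0.68. Both bins are rich in zinc finger genes: 81 and 80 of their tested features carry a ZNF name. The bin from 20 to 25 Mb, with 26 such features of 90, had a median of 0.28 and 7 called higher. The bin from 45 to 50 Mb, with 1 such feature of 177, had a median of 0.60 and 17 called higher.

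Chromosome 19 carries the largest clusters of C2H2 zinc finger genes (ZNF and ZFP symbols), most of which encode KRAB repressors of transposable elements. The lncRNA intervals of the chromosome were therefore split by the gene beneath them, a split chosen after the values were seen and given as a description. The 416 intervals over a ZNF or ZFP gene had a median log2 fold change of 0.74, with 122 called higher (29.3%) and 0 lower. Over all features without LMNB2, 1.88% were called higher. Tested intervals lie over 163 of the 255 annotated ZNF and ZFP genes of the chromosome, and the 122 called higher lie over 73. Per library the median level of the 416 was 0.02, 0.06 and −0.05 in GFP and 0.71, 0.80 and 0.69 in LMNB2. The 737 intervals over other protein-coding genes had a median of 0.50, with 55 called higher (7.46%) and 0 lower. The 480 over no protein-coding gene had a median of 0.19, with 46 called higher (9.58%) and 0 lower. With overlapping intervals removed, the median was 0.78 over the 132 zinc finger intervals left. It was 0.53 both over the 315 left on other protein-coding genes and over the 48 left on none. On the other chromosomes, 359 intervals over ZNF or ZFP genes had a median of 0.10, with 12 called higher (3.34%) and 0 lower. Those over other protein-coding genes had a median of −0.07, with 176 called higher (1.03%) and 129 lower (0.751%) of 17166. The LMNA and LMNB1 medians of the 416 intervals were −0.17 and −0.07 against the same GFP libraries. In place of 122, the number called higher was 20 without LMNB2 replicate 2, 23 without LMNB2 replicate 3, 46 without LMNB2 replicate 1, 58 without GFP replicate 2, 72 without LMNB1 replicate 2 and 8 with the 6 libraries alone, while the median stayed between 0.71 and 0.82.

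**Figure D2:**
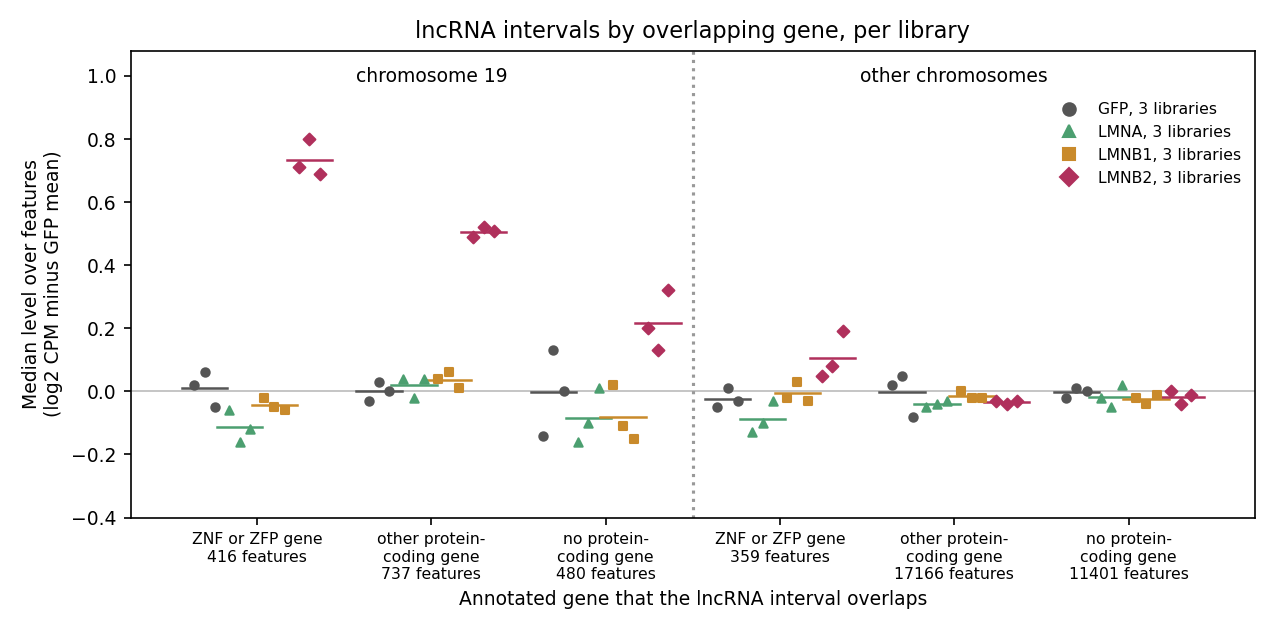
Median level (vertical axis, log2 CPM minus the GFP mean) of lncRNA intervals over a ZNF or ZFP gene, over other protein-coding genes and over none, on chromosome 19 and on the other chromosomes, in the 3 libraries of each group with a bar at the group mean. On chromosome 19 the LMNB2 libraries lie at 0.69 to 0.80 over zinc finger genes, and the LMNA and LMNB1 libraries lie near the GFP libraries.

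Among the zinc finger intervals, lnc-ZNF567-4 (chr19:36717681-36732268), which overlaps ZNF567, stood at 0.112, 0.103 and 0.135 CPM in GFP and at 0.410, 0.435 and 0.455 CPM in LMNB2. Those are 13, 14 and 24 reads against 68, 68 and 64, with no overlap, and the log2 fold change was 1.87 ± 0.23 (SE; edgeR adjusted p = 6.23e-04, and 0.00981 with the 6 libraries alone). LINC01534, the neighbouring lncRNA over ZNF461 and ZNF567, was at 0.679, 0.661 and 0.490 CPM in GFP and at 1.40, 1.56 and 1.31 CPM in LMNB2 (log2 fold change 1.23 ± 0.17 SE; edgeR adjusted p = 0.00186). It lay below GFP in the other lamins, at −0.34 in LMNA and −0.32 in LMNB1, and its call was lost only with the 6 libraries alone (adjusted p = 0.0627). lnc-ZNF83-2, over ZNF83, went from 0.127 ± 0.0376 to 0.423 ± 0.0398 CPM, a log2 fold change of 1.74. AC011503.1, over ZNF726, went from 0.143 ± 0.0324 to 0.434 ± 0.0327 CPM, a log2 fold change of 1.59. Both were separated between groups and called in every alternative fit. The antisense lncRNA ZNF649-AS1 went from 0.0679 ± 0.00926 to 0.253 ± 0.0264 CPM (log2 fold change 1.89; edgeR adjusted p = 0.00398), and ZNF433-AS1 from 0.196 ± 0.0404 to 0.378 ± 0.0141 CPM (0.96; edgeR adjusted p = 0.0246). Without strand, antisense RNA and the ZNF transcript on the other strand cannot be told apart. The call of ZNF433-AS1 was lost in 5 of 20 fits, with an adjusted p of up to 0.120.

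After chromosome 19, the highest median log2 fold changes were 0.26 on chromosome 22, 0.21 on chromosomes 17 and 20, 0.16 on chromosome 16 and 0.15 on chromosome 21, which hold 8.88, 14.0, 8.35, 9.47 and 5.12 protein-coding genes per Mb. Chromosomes 11 and 1, with 9.63 and 8.28 genes per Mb, were at −0.14 and −0.05. In median level per library, the LMNB2 libraries lay above the GFP libraries on chromosomes 16, 17, 20 and 22. Chromosome 17 had 78 features called higher of 1981 (3.94%) and 10 lower, and chromosome 20 had 37 of 715 (5.17%) and 1 lower. The lowest medians were −0.24 on chromosome 5 and −0.22 on chromosome 18, and both turned to 0.01 and 0.03 under scaling by total counts, where all features stood at 0.21. On gene-poor chromosome 13, 0 of 728 features were called higher and 9 lower (1.24%), against 1.91% and 0.752% of all features. Chromosomes 4 and 18, also gene-poor, had 10 (0.818%) and 9 (1.55%) called higher. They had 6 (0.491%) and 8 (1.38%) called lower. Across the 22 autosomes and X, 23 points that share the same 6 libraries, the median log2 fold change had a Spearman rho of 0.62 and a Pearson r of 0.78 with the number of protein-coding genes per Mb, and rho was 0.56 without chromosome 19. The medians of chromosomes in LMNA cells ran from −0.12 to 0.07 and in LMNB1 cells from −0.13 to 0.03.

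Away from chromosome 19, lnc-BCOR-8 (chrX:39786501-39786848), a short interval on chromosome X that the table puts in the class of signal recognition particle RNA, had the smallest adjusted p-value among the named features outside the lamin genes. It was at 0.584, 0.514 and 0.496 CPM in GFP and at 1.60, 1.46 and 1.56 CPM in LMNB2 (log2 fold change 1.54 ± 0.15 SE; edgeR adjusted p = 5e-05). The groups did not overlap, and against the same GFP libraries the interval was at 0.75 in LMNA and 0.40 in LMNB1. LINC02177 on chromosome 16 went from 0.107 ± 0.0200 to 0.295 ± 0.0277 CPM, a log2 fold change of 1.44. LHX1-DT, which starts beside the kidney and neural transcription factor gene LHX1 on chromosome 17, went from 0.0763 ± 0.0223 to 0.238 ± 0.0431 CPM (1.59). NONHSAG023148.2 on chromosome 18 rose by 1.72 and AP006621.4, over EPS8L2 on chromosome 11, by 1.65. The calls of these 4 were lost in 2 to 4 of their fits each, among them that of the 6 libraries alone.

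**Figure D3:**
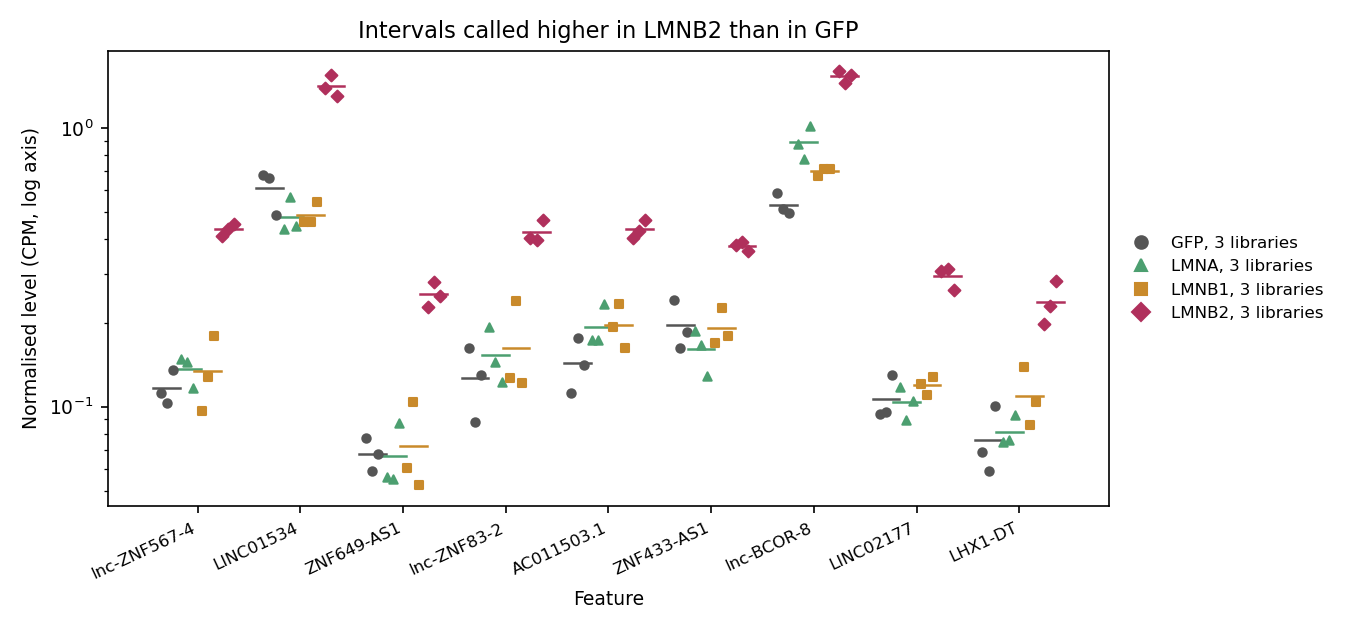
Normalised level (vertical axis, CPM on a log scale) of 9 intervals called higher in LMNB2, 8 of the lncRNA class and lnc-BCOR-8, in the 3 libraries of each group with a bar at the group mean. The 6 on the left overlap zinc finger genes of chromosome 19, and in all 9 the LMNB2 libraries lie above every GFP library.

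NEAT1, the lncRNA that builds nuclear paraspeckles, was higher in intervals along its length. All 30 tested NEAT1 intervals lay higher in every LMNB2 library than in every GFP library, against 12.1% of all features, and 20 were called. They overlap one another on chromosome 11 and so count the same reads repeatedly. The interval chr11:65422749-65424852 stood at 1.06, 1.23 and 1.15 CPM in GFP and at 2.02, 1.89 and 2.06 CPM in LMNB2 (log2 fold change 0.79 ± 0.15 SE; edgeR adjusted p = 0.0199). The longest annotated form, chr11:65418447-65450118, was at 0.66 and was not called (edgeR adjusted p = 0.0618). The median of the 30 intervals was 0.68, against −0.11 in LMNA and −0.18 in LMNB1 cells, and 0 of them were called when any 1 LMNB2 library was left out, with total counts or with the 6 libraries alone, 11 without GFP replicate 2 or any 1 LMNA or LMNB1 library, and 29 without GFP replicate 3. Its neighbour MALAT1, a nuclear speckle RNA, had a median of 0.28 over 39 intervals with 0 called. TUG1, KCNQ1OT1 and NORAD were at 0.19, 0.03 and 0.12 in their most counted intervals, none of them called. Over the whole list of nuclear lncRNAs, 20 of 136 features were called higher, all of them NEAT1, and 0 lower. Of 112 intervals of p53-responsive and stress lncRNAs, 0 were called, although 44 (39.3%) lay higher in every LMNB2 library, against 12.1% of all features, and 64 had an unadjusted p under 0.05. The intervals overlap heavily. Over the 3 left when overlaps are removed the median was −1.34, against 0.18 over all 112.

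The lncRNAs that fell were spread over many loci. PAUPAR, which lies beside PAX6 on chromosome 11, was at 10.8, 10.9 and 25.9 CPM in GFP and at 6.83, 6.15 and 6.30 CPM in LMNB2 (log2 fold change −1.30 ± 0.29 SE; edgeR adjusted p = 0.0310). GFP replicate 3 held the high value, and without it the difference was −0.70 with an adjusted p of 0.0204. MIR31HG, the host gene of miR-31 on chromosome 9, went from 0.614 ± 0.249 to 0.276 ± 0.0320 CPM (−1.17), and LINC01239 on the same chromosome from 0.931 ± 0.0764 to 0.503 ± 0.0681 CPM (−0.88). LINC01725 on chromosome 1 went from 0.201 ± 0.0235 to 0.0736 ± 0.0194 CPM (−1.44), and PCA3, named from prostate cancer, from 0.211 ± 0.0517 to 0.0830 ± 0.0217 CPM (−1.37). LMNA and LMNB1 cells also lay below GFP for these 4, by −1.12 to −0.45. PCA3 kept its call in 5 of 20 fits. Of the SNHG host genes of snoRNAs, 4 of 373 intervals were called higher (1.07%, against 1.91% of all features) and 1 lower (0.268%, against 0.752%). SNHG17 and SNHG12 were higher by 0.78 and 0.80, and SNHG29 was at −0.97. The list had 0 calls without GFP replicate 2, LMNA replicate 1 or 2, or any 1 LMNB1 or LMNB2 library, and 61 higher and 83 lower without GFP replicate 3. Its median of −0.21 turned to 0.12 without GFP replicate 1.

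Among the RNAs that act on ribosomal RNA, copies of U3 were higher. U3 is a box C/D snoRNA needed for the first cleavages of the ribosomal RNA precursor, and SNORD3A and SNORD3C are among its genes, on chromosome 17. SNORD3A stood at 50.9, 41.3 and 47.5 CPM in GFP and at 84.0, 87.1 and 84.3 CPM in LMNB2 (log2 fold change 0.87 ± 0.20 SE; edgeR adjusted p = 0.0344), and SNORD3C rose by 0.85. All 9 tested U3 copies lay higher in every LMNB2 library than in every GFP library, and 7 were called, with a median of 0.79, against 12.1% separated upwards and 1.91% called higher of all features. The copies are near-identical and may share reads. The calls numbered 9 without GFP replicate 1 or 3, 4 without LMNA replicate 3, and 0 without any other single library, with total counts or with the 6 libraries alone. With single libraries left out, the median stayed between 0.69 and 0.96. The rRNA precursor itself, in 5 intervals of the 45S genes RNA45SN1, RNA45SN2 and RNA45SN3 on chromosome 21, lay higher in every LMNB2 library with a median of 0.48, but 0 of 5 were called. FP671120.2 (chr21:8380640-8454817), an lncRNA interval that spans such genes and is the most counted by CPM among those named, was at 13300, 14300 and 13900 CPM in GFP and at 18800, 19300 and 19900 CPM in LMNB2 (log2 fold change 0.48 ± 0.25 SE; edgeR adjusted p = 0.302).

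Box H/ACA snoRNAs, which guide pseudouridylation, had 14 of 131 tested members called higher and 1 lower, with a median of 0.28. That is 10.7% called higher, against 1.91% of all features, and 34 members (26.0%) were separated upwards, against 12.1%. SNORA16A, inside SNHG12, was at 5.57, 5.04 and 4.57 CPM in GFP and at 9.85, 12.4 and 11.3 CPM in LMNB2 (log2 fold change 1.14 ± 0.19 SE; edgeR adjusted p = 0.00764). SNORA49 was at 0.335, 0.367 and 0.434 CPM in GFP and at 0.808, 0.883 and 0.988 CPM in LMNB2 (1.23 ± 0.19 SE; edgeR adjusted p = 0.00441). Neither overlapped between the groups; SNORA49 lost its call only with the 6 libraries alone (adjusted p = 0.0563). SNORA10, inside RPS2, rose by 1.21, SNORA17A by 0.99 and SNORA4, inside EIF4A2, by 1.57, while SNORA69, inside RPL39, fell by 0.78. The number of H/ACA calls upwards was 1 without LMNB2 replicate 2, 3 without LMNB2 replicate 3, 6 without LMNB2 replicate 1 or GFP replicate 2, 30 without GFP replicate 3, 4 with total counts and 0 with the 6 libraries alone. In LMNA cells the median of the list was 0.41 and in LMNB1 cells 0.03.

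Small Cajal body RNAs, which guide modification of spliceosomal snRNAs, had 3 of 27 members called higher (11.1%, against 1.91% of all features) and 0 lower. SCARNA18 was at 0.765, 0.786 and 0.986 CPM in GFP and at 1.78, 1.77 and 2.03 CPM in LMNB2 (log2 fold change 1.13 ± 0.17 SE; edgeR adjusted p = 0.00365). SCARNA12 rose by 0.90 and SCARNA10 by 0.59. The number of members called higher was 1 without any 1 LMNB2 library or without GFP replicate 2, 8 without GFP replicate 3 and 0 with the 6 libraries alone. Box C/D snoRNAs as a whole had a median of −0.19, with 9 of 194 called higher (4.64%, against 1.91% of all features) and 1 lower. The median was 0.13 under scaling by total counts, which is −0.08 relative to all features. It was also 0.13 without GFP replicate 1, which is 0.16 relative to all features. The number called higher was 0 or 1 without GFP replicate 2, LMNA replicate 1 or 2, or any 1 LMNB1 or LMNB2 library, while 21 were higher and 26 lower without GFP replicate 3. SNORD89 rose by 0.74 and SNORD35A, inside RPL13A, by 0.78. SNORD49B, inside SNHG29, was at 11.8, 10.2 and 11.2 CPM in GFP and at 4.87, 6.10 and 5.59 CPM in LMNB2 (−1.01 ± 0.25 SE; edgeR adjusted p = 0.0419), and the SNHG29 interval holds the same reads. The 10 tested snoRNAs of GAS5 and the 8 of SNHG1, host genes whose transcripts carry the growth-regulated 5′ TOP motif, had medians of −0.65 and −0.49 with 0 called, within GFP libraries that themselves ran from −0.63 to 0.75 and from −0.53 to 0.76.

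Of the spliceosomal snRNAs, 5 of 44 variant genes and copies of U1 were called higher. RNVU1-19, a variant U1 gene on chromosome 1, was at 23.9, 28.9 and 27.4 CPM in GFP and at 44.6, 54.7 and 52.9 CPM in LMNB2 (log2 fold change 0.92 ± 0.20 SE; edgeR adjusted p = 0.0282). RNVU1-1 rose by 0.90 to a similar level, and the groups overlapped in neither. The median of the 44 was 0.54, with 0 called lower, and the share called higher is to be read against 1.91% of all features. These sequences are near-identical, and the counts of one may be reads of another. The number called was 0 without any 1 LMNB2 library or LMNB1 replicate 1 and with the 6 libraries alone, and 12 without GFP replicate 3. The list of major and minor spliceosomal snRNA genes transcribed by RNA polymerase II had 0 of 29 called and a median of 0.16.

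**Figure D4:**
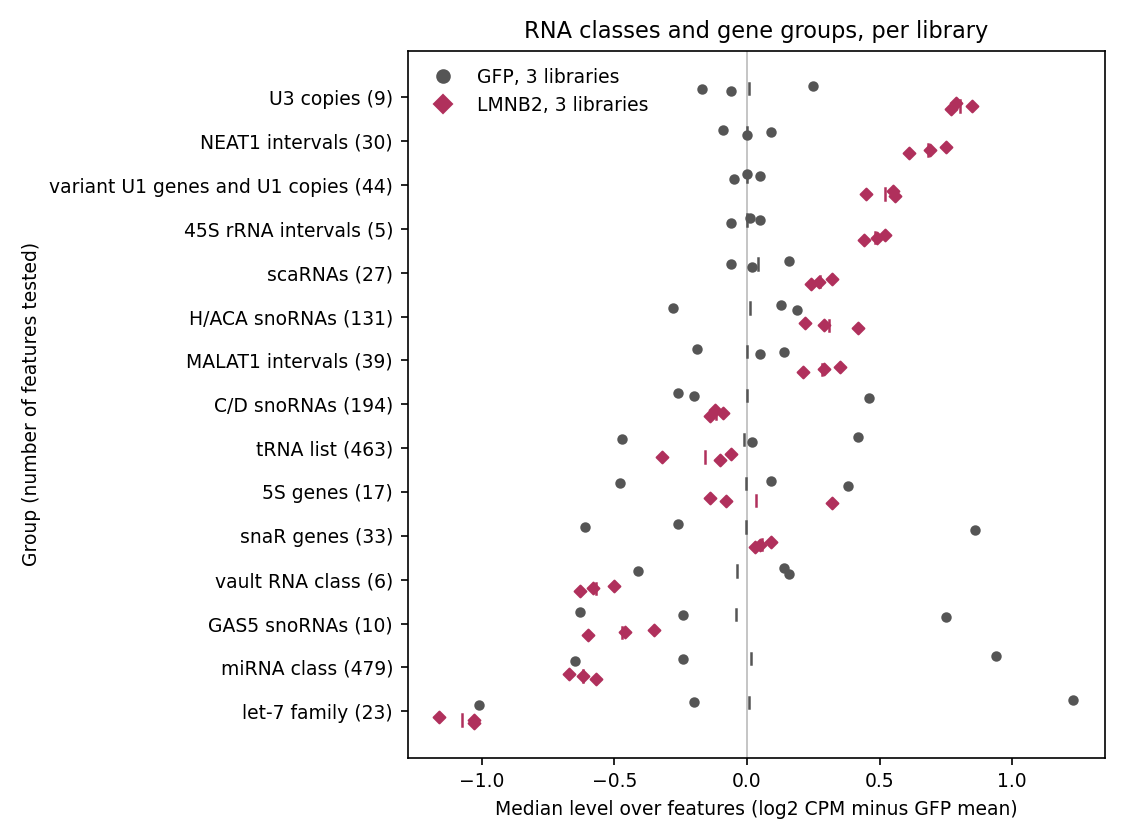
Median level (horizontal axis, log2 CPM minus the GFP mean) of RNA classes and gene groups in each of the 3 GFP and 3 LMNB2 libraries, with a bar at the group mean and the number of features tested in brackets. LMNB2 lies above GFP in U3, NEAT1, U1 and 45S intervals, and within or near the wide range of GFP in GAS5 snoRNAs, miRNAs and let-7.

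The tRNAs and other RNA polymerase III products were read next. Among 548 tested features of the tRNA class, 0 were called higher, against 1.91% of all features. The 5 called lower are 0.912%, near the 0.752% of all features, and the median of −0.21 became 0.05 without GFP replicate 3. The calls were 12 higher and 11 lower without that library, and 9 higher and 16 lower without GFP replicate 1. In the list of nuclear tRNA genes, 0 of 463 were called higher and 3 lower (0.648%). These were tRNA-Gly-GCC-6-1 at −1.07, tRNA-Ala-AGC-13-1 at −1.27 and tRNA-Ile-GAT-1-1 at −2.43, with means of 0.268, 0.127 and 0.122 CPM in GFP. tRNA calls fell to 0 when any 1 LMNB2 library was left out. The 17 clustered 5S rRNA genes had a median of 0.00 with 0 called, and 5 U6 genes had a median of −0.10 with 0 called. Dispersed 5S copies had 4 of 137 called higher (2.92%, near the 1.91% of all features), with nearly equal levels of about 21.0 CPM in GFP and 39.2 CPM in LMNB2 at the copy on chromosome 6 (0.90), and such copies may share reads. Of the snaR genes, primate-specific RNA polymerase III genes of chromosome 19, 2 of 33 were called lower (6.06%, against 0.752% of all features). SNAR-C4 went from 0.792 ± 0.248 to 0.323 ± 0.0405 CPM (−1.29) and SNAR-C3 from 0.727 ± 0.306 to 0.319 ± 0.0652 CPM (−1.19). Their calls were kept in 17 and 8 of 22 fits. Both were lost with the 6 libraries alone (edgeR adjusted p of 0.0802 and 0.135), and that of SNAR-C3 also without GFP replicate 3 (0.116). The median of the 33 features was −0.08, and it was 1.16 in LMNA and 0.57 in LMNB1 cells. Median levels in the GFP libraries ran from −0.61 to 0.86.

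Of 15 other RNA polymerase III genes, 0 were called. VTRNA2-1, also known as nc886 and an inhibitor of the kinase PKR, came nearest among those that were lower, at 814, 830 and 562 CPM in GFP and 353, 359 and 429 CPM in LMNB2 (log2 fold change −0.95 ± 0.28 SE; edgeR adjusted p = 0.0745). Its groups did not overlap, and without GFP replicate 3 the difference was −1.07 with an adjusted p of 0.00867. The RN7SL genes of the signal recognition particle lay above GFP in every LMNB2 library: RN7SL1 was at 13.9 ± 1.61 and 21.1 ± 0.406 CPM (0.60; edgeR adjusted p = 0.121), and RN7SL2 and RN7SL3 were at 0.60 and 0.62. The Y RNAs RNY1, RNY3, RNY4 and RNY5 were at 0.55, 0.05, 0.28 and 0.54, the vault RNAs VTRNA1-1, VTRNA1-2 and VTRNA1-3 at −0.19, −0.40 and −0.22, and RN7SK, RMRP, RPPH1 and BCYRN1 at 0.09, 0.15, 0.17 and −0.03. None of these differences passed the test. Of 46 mitochondrial features, 0 were called higher and 1 lower, the mitochondrial tRNA for aspartate MT-TD (−0.87).

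For miRNAs, 6 of 479 features were called higher, 3 of them MIR7108 inside LMNB2, and 26 lower (5.43%, against 0.752% of all features). The number called lower was 0 with total counts and with the 6 libraries alone, and 86 with DESeq2. The class median was −0.90, but the GFP libraries did not agree on it: their median levels were −0.65, −0.24 and 0.94, and the LMNB2 libraries, at −0.57, −0.62 and −0.67, lay near GFP replicate 1. Without GFP replicate 3 the median was −0.15 with 20 called lower, without GFP replicate 1 it was −1.14 with 131 called lower, and without any 1 LMNB2 library 0 were called lower. Between 10 and 24 were called lower in the other fits that left out a library.

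MIR423, an abundant miRNA whose 3p interval also holds MIR3184 on the other strand, was called lower. It stood at 207, 239 and 196 CPM in GFP and at 97.5, 92.7 and 96.6 CPM in LMNB2 (log2 fold change −1.16 ± 0.25 SE; edgeR adjusted p = 0.0240). The LMNB2 libraries lay below every GFP library, GFP replicate 3 was the lowest of its group, and without it the adjusted p was 0.00267. LMNA and LMNB1 were at −0.18 and −0.27 against the same GFP libraries. MIR92B was at 4.96, 3.84 and 3.77 CPM in GFP and at 2.5, 1.91 and 1.88 CPM in LMNB2 (−1.0 ± 0.20 SE; edgeR adjusted p = 0.0217), with no overlap. MIR92A1, whose 3p arm has the same seed, was at 21.3, 26.3 and 52.1 CPM and at 19.4, 20.3 and 17.9 CPM (−0.79; edgeR adjusted p = 0.190). MIR2110 was at 2.83, 3.24 and 2.30 CPM in GFP and at 1.46, 1.25 and 1.62 CPM in LMNB2 (−0.95 ± 0.18 SE; edgeR adjusted p = 0.0177). Of the 21 or 22 fits for each of these 3 called miRNAs, 15 to 17 kept the call.

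The miR-17-92 cluster had 6 miRNAs tested and 2 called lower (33.3%, against 0.752% of all features), with a median of −0.84. None was called without any 1 LMNA, LMNB1 or LMNB2 library, with the replicate block, with total counts or with the 6 libraries alone. MIR19A was at 0.335, 0.309 and 0.913 CPM in GFP and at 0.175, 0.166 and 0.128 CPM in LMNB2 (log2 fold change −1.75; edgeR adjusted p = 0.0410), and −0.98 without the high GFP replicate 3. The edgeR adjusted p of MIR19A without that library was 0.0194, and its call was kept in 9 of 21 fits. MIR20A was at −0.98 (edgeR adjusted p = 0.050, just under the threshold before rounding), and its groups overlapped. MIR17, MIR18A and MIR19B1 were at −0.83, −0.84 and −0.43 and were not called. MIR19B1, with the same 3p seed as MIR19A, was at 11.6 ± 3.44 and 8.57 ± 0.857 CPM. The 15 tested intervals of the host transcript MIR17HG had a median of −0.73 with 0 called, and the paralogous clusters had 0 of 8 called.

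The let-7 family, which represses growth genes, had 23 intervals tested and 2 called lower (8.7%, against 0.752% of all features), both of MIRLET7E on chromosome 19. The number called lower was 0 without any 1 LMNB2 library, with total counts or with the 6 libraries alone, and 15 without GFP replicate 1. Its hairpin interval was at 3.04, 5.03 and 6.93 CPM in GFP and at 2.23, 1.98 and 2.12 CPM in LMNB2 (log2 fold change −1.25 ± 0.25 SE; edgeR adjusted p = 0.0217). The family median was −1.49, with GFP libraries at −1.01, −0.20 and 1.23 and LMNB2 libraries at −1.03, −1.03 and −1.16; without GFP replicate 3 it was −0.36. The 8 matched arms that share the let-7 seed had a median of −1.53 and all lay below 0. MIR505 on chromosome X fell by 1.25 and MIR6797 on chromosome 19 rose by 0.98. Without GFP replicate 3 their calls were lost (adjusted p of 0.0688 and 0.0572). MIR744, chosen after its values were seen for its abundance, went from 61.9 ± 18.7 to 31.5 ± 1.62 CPM (−0.97; edgeR adjusted p = 0.0344).

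**Figure D5:**
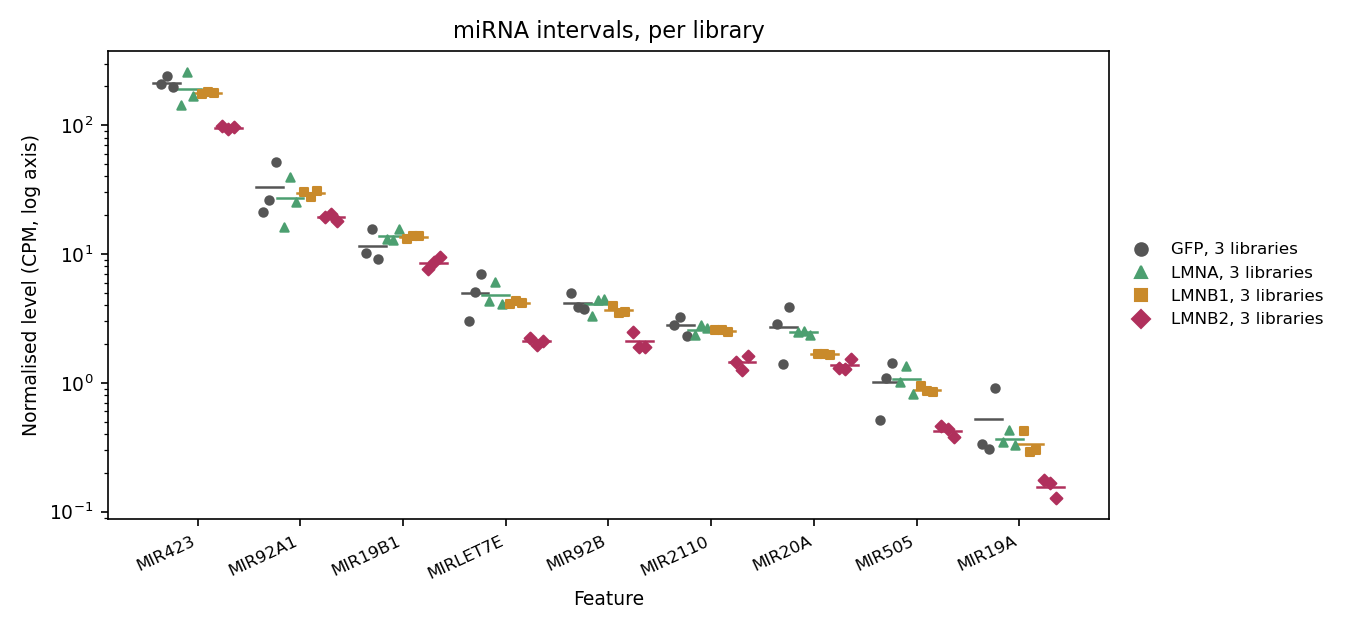
Normalised level (vertical axis, CPM on a log scale) of 9 miRNA intervals in the 3 libraries of each group with a bar at the group mean. MIR423 lies at 92.7 to 97.5 CPM in LMNB2 and at 196 to 239 CPM in GFP, while in MIR92A1 and MIR19A GFP replicate 3 lies far above the other GFP libraries.

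The contrast of LMNB2 with the mean of LMNA and LMNB1 leaves out the GFP libraries but uses the same LMNB2 libraries. In it 1358 features were called (4.01%), 1172 higher (3.46%) and 186 lower (0.549%). On chromosome 19, again without LMNB2, 455 features were higher in LMNB2 and 7 lower. Of the 416 intervals over zinc finger genes of that chromosome 236 were higher and 0 lower, and all 30 NEAT1 intervals were higher. This number of calls was 351 without LMNB2 replicate 3, 356 without LMNB2 replicate 2, 513 without LMNB2 replicate 1 and 3634 without GFP replicate 3. That library is in neither group of this contrast but shares its fit, and without it 36091 features were tested; the cause of the change was not tested.

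Accessibility at these features was read from the ATAC libraries of the same conditions. Of 163786 windows tested, 4 were called between LMNB2 and GFP (0.00244%), and among the features called in small RNA the called windows were 2, both over LMNB2. The windows of features called higher in small RNA had a median log2 fold change of −0.05, with 195 of 640 above 0. Those of features called lower had a median of 0.01, with 131 of 244 above 0. Over the windows of all tested features the median was −0.02, with 14137 of 33312 above 0. The median was −0.03 on chromosome 19 and −0.06 over the 416 zinc finger intervals. It was −0.06 over the NEAT1 intervals and −0.03 over the U3 copies.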

How the data were processed

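The deposited table of raw counts gives, per the file headers, whole-number counts per annotated interval for 12 small RNA libraries, and a second table gives counts per interval and flanking window for 12 ATAC libraries. Intervals are on GRCh38 per the submitters' processing notes; the aligner, counter, use of strand and treatment of reads with several matches are not given in the sources used here. Samples were grouped by their labels. Counts were fitted with edgeR 4.0.16 in R 4.3.3 over all 12 small RNA libraries (filterByExpr, TMM scaling, robust quasi-likelihood), p-values were adjusted by Benjamini-Hochberg over all 33893 tested features, and a feature was called at an adjusted p under 0.05. SE is the log2 fold change divided by the root of the F statistic. Levels per library are log2 CPM with a prior count of 2. The ATAC table was fitted in the same way over the interval windows, without the flanks.

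The RNA class is that of the table's biotype. The genes and lists, and the rule for the features named, were chosen with earlier results of these data known. The rule named all tested features over LMNB2, LMNB1 and LMNA, the 4 largest calls per biotype and direction (8 for lncRNA) with separated libraries and at least the median log2 CPM, other calls by adjusted p in biotypes with fewer than 4, up to 4 called members per list, all members of 3 lists, and the 6 most counted features. Groups over single genes and repeats and the zinc finger genes were chosen after their values were seen. Features on chromosome 8 are not named. Where the overlap of an interval with a gene is given, genes are RefSeq's (GRCh38.p14). The fit was tested on simulated data. Alternatives were other scalings, filters, DESeq2 1.42.0, thresholds, a replicate block and leaving out each library. Replicate numbers are shared by the groups, but deviations of same-numbered GFP and LMNB2 libraries correlated at −0.01, 0.05 and −0.04. No pairing by number was seen, but with 3 libraries per group and mostly low counts this check cannot exclude it. The main fit did not pair the libraries.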

Additional observations from a re-analysis of the deposited data

Results flagged for a closer look

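The results here are differences between the lamins: the contrast of LMNB2 with the mean of LMNA and LMNB1 called 1358 features, and the features below passed it as well as the contrast with GFP. Both contrasts use the same LMNB2 libraries, and each value is the log2 difference of LMNB2 from the mean of the other lamins.

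Over LMNB2 itself the difference was 9.30 in NONHSAG024437.2, 7.65 in lnc-GADD45B-1, 7.68 in lnc-TIMM13-1, 6.59 in lnc-TIMM13-2 and 9.63 in lnc-TIMM13-3. The MIR7108 intervals were at 9.64, 9.41 and 8.68. The 2 called LMNB1-DT intervals were lower than that mean, by −1.75 and −1.47, and held 18.3 and 18.2 CPM in LMNB1 cells.

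Among intervals over zinc finger genes of chromosome 19, the difference was 1.85 in ZNF649-AS1, 1.66 in lnc-ZNF567-4, 1.55 in LINC01534, 1.42 in lnc-ZNF83-2, 1.15 in AC011503.1 and 1.11 in ZNF433-AS1. Other lncRNA intervals above the other lamins were NONHSAG023148.2 at 1.62, AP006621.4 at 1.51, LINC02177 at 1.39, LHX1-DT at 1.31, PARD6G-AS1 at 0.91 and THUMPD3-AS1 at 0.81. The called NEAT1 intervals were at 0.97 and 0.81, and of the signal recognition particle RNA class, lnc-BCOR-8 was at 0.96 and an interval over TIMM29 and YIPF2 at 0.61. Below the other lamins were lnc-CLDN10-8 at −1.33, PAUPAR at −1.05 and an interval over MYSM1 on chromosome 1 at −0.90.

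Of the snoRNAs and scaRNAs, SNORA10B was at 0.96, SNORA49 at 0.92, SNORA16A at 0.71, SNORD35A at 0.68 and SNORD3C at 0.63. SCARNA18 and SCARNA12 were both at 0.69 and SCARNA10 at 0.64. The U1 genes RNVU1-19 and RNVU1-1 were both at 0.75, and U1 copies on chromosomes 6 and 21 were at 0.72 and 0.79. Dispersed 5S copies on chromosomes 6, X and 11 were at 0.72, 0.74 and 0.71, and MIR7641-2, which the table places in the rRNA class, was at 0.66. The snaR genes SNAR-C3 and SNAR-C4 were at −1.04 and −0.92.

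Of the miRNAs, MIR505 was at −1.18, MIRLET7E at −1.09, the interval of MIR423 and MIR3184 at −0.94, MIR92B at −0.88 and MIR2110 at −0.83. These 5 were below both GFP and the other lamins in the LMNB2 libraries.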

How the results depend on the processing

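The 901 calls between LMNB2 and GFP became 282 with total counts, 1745 without a count filter (850 higher, 895 lower), 21 with only the libraries compared, 127 over features other than lncRNA intervals, 296 with 1 feature per overlap, 71 at an adjusted p under 0.01 and 484 where a log2 fold change of 1 or more in either direction was also required. Leaving out 1 library gave 51 to 2101. The DESeq2 Wald test called 1193 (627 higher, 566 lower). The 1358 calls between LMNB2 and the mean of LMNA and LMNB1 became, in the same settings, 753 with total counts, 4563 with only the libraries compared, 180 without lncRNA intervals, 409 with 1 feature per overlap, 477 at an adjusted p under 0.01 and 533 at the fold minimum, and 2142 with TMM factors from features other than lncRNA intervals. Leaving out 1 library gave 351 to 3634. The 2 ATAC windows became 5 with total counts, 11 with DESeq2 and 10 with only the libraries compared, and 2 to 7 on leaving out 1 library: 4 without LMNA replicate 1 and 7 without LMNB1 replicate 3. With a replicate block the calls were 729 and 1240, and the ATAC windows 2; the check of pairing gave correlations of −0.01, 0.05 and −0.04. Beyond the smaller number of features or libraries that some settings use, the cause of these changes was not tested. The balance of calls against GFP turned from 646 higher and 255 lower to 589 and 801 without GFP replicate 1, and tRNA features had 12 called higher and 11 lower without GFP replicate 3, against 0 and 5. Many named intervals had means under 1 CPM, which limits single calls more than group medians. Alternatives for groups chosen after seeing the data were added then.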
